A study of Homo sapiens with 6 samples.

Results

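Interleukin-6 (IL-6) is a growth and survival factor for myeloma cells that stromal cells of the bone marrow secrete. It binds the receptor chain IL6R, the complex recruits the shared signal transducer gp130 (gene IL6ST), and the Janus kinases JAK1, JAK2 and TYK2, which are held on gp130, phosphorylate the transcription factor STAT3 and, to a lesser extent, STAT5. STAT3 then induces target genes, among them the kinase gene PIM1 and the inhibitor genes SOCS1 and SOCS3, whose products feed back on the receptor complex. The 10 genes described here are this axis: IL6R, IL6ST, JAK1, JAK2, TYK2, STAT3, STAT5B, SOCS1, SOCS3 and PIM1. They were chosen by symbol, for their place in the pathway, with earlier results of these data known. All 10 are among the 21850 genes with deposited counts.

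RNA was sequenced from MM.1S, an established human multiple myeloma cell line, at day 3 after lentiviral infection with a scramble hairpin (labelled WT, shscramble infection; here shNT, n = 3 libraries) or a hairpin against PRKCN (labelled PRKCN knockdown, PRKCN shRNA infection; here shPRKCN, n = 3 libraries). PRKCN, a kinase of the protein kinase D family, carries the current symbol PRKD3. The labels name 1 knockdown construct in 1 cell line, so effects of PRKCN loss and of that hairpin on other transcripts cannot be told apart. They do not say whether replicates were separate cultures, so the p-values measure only the spread between these libraries. No cytokine treatment is named in the labels.

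Each library held 35625564 to 37730003 counts, and PRKD3 had 44913 to 47712 counts in the shNT libraries against 18253 to 19998 in the shPRKCN libraries. The 12 listed markers of B cells, T cells, myeloid and stromal cells other than CD3E had 0 to 29 counts in any library and summed to 1.03 to 1.36 CPM in shNT and 1.07 to 1.42 CPM in shPRKCN libraries. CD3E rose, with 379 to 419 counts in shNT and 1021 to 1150 counts in shPRKCN libraries, while CD3D and CD3G had at most 1 count. Expression is given in CPM, TMM-scaled counts relative to the library size, for comparing a gene between libraries, and in the deposited FPKM, which divides by gene length, for comparing genes. Differential expression was tested with edgeR on 13971 genes, and a call needed both a log2 fold change beyond 0.58, a fold of 1.49, and a Benjamini-Hochberg adjusted p below 0.05. Of 10 plasma cell markers, 9 were tested, none was called higher and 4 were called lower, where 10.6% of all genes tested were. The transcription factor genes IRF4 and XBP1, TNFRSF17 (BCMA) and SLAMF7 fell by 1.85, 1.28, 1.13 and 0.97 on the log2 scale (adjusted p of at most 1.3e-34 from edgeR). PRDM1 and MZB1 also fell, by 0.54 and 0.23, within the fold limit. SDC1 (CD138) rose by 0.18, CD38 (−0.01) and JCHAIN (0.01) did not pass, and SDC1 and JCHAIN had at least 32030 and 188162 counts in every library. The part of these marker changes in the differences of the 10 genes was not tested.

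STAT dimers recognise short palindromes, so the promoter windows of the 10 genes, 250 bases before to 50 after each RefSeq start (GRCh38.p14), were searched for the motif TTCNNNGAA, which reads the same on both strands. None of the 16 windows of the 10 genes held it, against 7.66% of 35116 windows of all genes, and none held the stricter TTCCNGGAA (1.15% of all windows). The looser TTNNNNNAA, searched after the first result was seen, contains both other motifs and occurred in 52.5% of all windows. A window without these letters says nothing of sites elsewhere. The windows of IL6R, IL6ST and SOCS3 are shown, with the TTNNNNNAA matches in capitals: the pair of receptor chains, which changed in opposite directions, and SOCS3, which fell most. They lie at chr1:154405093-154405392 (plus strand), chr5:55994914-55995213 (minus strand) and chr17:78360876-78361175 (minus strand).
IL6R: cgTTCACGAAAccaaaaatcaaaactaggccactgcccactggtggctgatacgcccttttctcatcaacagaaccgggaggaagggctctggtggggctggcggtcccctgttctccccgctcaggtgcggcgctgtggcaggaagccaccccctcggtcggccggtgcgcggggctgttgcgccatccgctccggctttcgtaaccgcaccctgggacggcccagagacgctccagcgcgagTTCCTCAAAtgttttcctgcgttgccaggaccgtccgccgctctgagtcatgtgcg
IL6ST: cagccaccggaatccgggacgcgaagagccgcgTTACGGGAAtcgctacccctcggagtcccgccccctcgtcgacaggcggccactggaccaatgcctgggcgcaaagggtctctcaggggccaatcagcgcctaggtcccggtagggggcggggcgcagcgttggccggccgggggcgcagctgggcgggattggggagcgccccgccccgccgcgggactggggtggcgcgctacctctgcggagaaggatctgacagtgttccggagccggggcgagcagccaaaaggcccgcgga
SOCS3: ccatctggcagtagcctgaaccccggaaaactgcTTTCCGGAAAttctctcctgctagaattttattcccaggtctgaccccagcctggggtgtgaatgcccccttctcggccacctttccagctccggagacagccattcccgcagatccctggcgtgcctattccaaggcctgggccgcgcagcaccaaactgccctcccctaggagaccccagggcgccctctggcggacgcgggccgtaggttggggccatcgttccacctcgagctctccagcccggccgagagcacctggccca
The IL6R matches start 248 and 6 bases before the gene start, the IL6ST match 217 bases before it, and the overlapping SOCS3 matches 216 and 215 bases before it. SOCS3 has a further RefSeq start, and neither that window nor the window of PIM1 held any of the 3 motifs. The same was true of the windows of TYK2, STAT5B and SOCS1. Among the windows not shown, JAK1, JAK2 and STAT3 also had TTNNNNNAA matches, so the motif was not particular to the genes shown.

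Over the 10 genes, JAK2 and SOCS3 were called lower after PRKCN knockdown and none was called higher. These are 2 of 10, where 16.7% of all genes tested were called (6.15% higher and 10.6% lower), so the count itself is near that of the transcriptome. At an adjusted p under 0.05 without a fold limit, 5 genes were higher (IL6R, JAK1, TYK2, STAT3 and STAT5B) and 4 were lower (IL6ST, JAK2, SOCS3 and PIM1), where 54.2% of all genes tested passed, 26.5% upward and 27.8% downward. The libraries of the 2 groups did not overlap in CPM for 9 of the 10 genes, against 58.8% of all genes. The median log2 fold change of the 10 was 0.16 and that of all genes 0.0012, and the median of the absolute log2 fold change was 0.37 against 0.25. With 3 libraries against 3, a 2-sided exact permutation test cannot give less than p = 0.1, which each of those 9 genes reached.

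**Figure D1:**
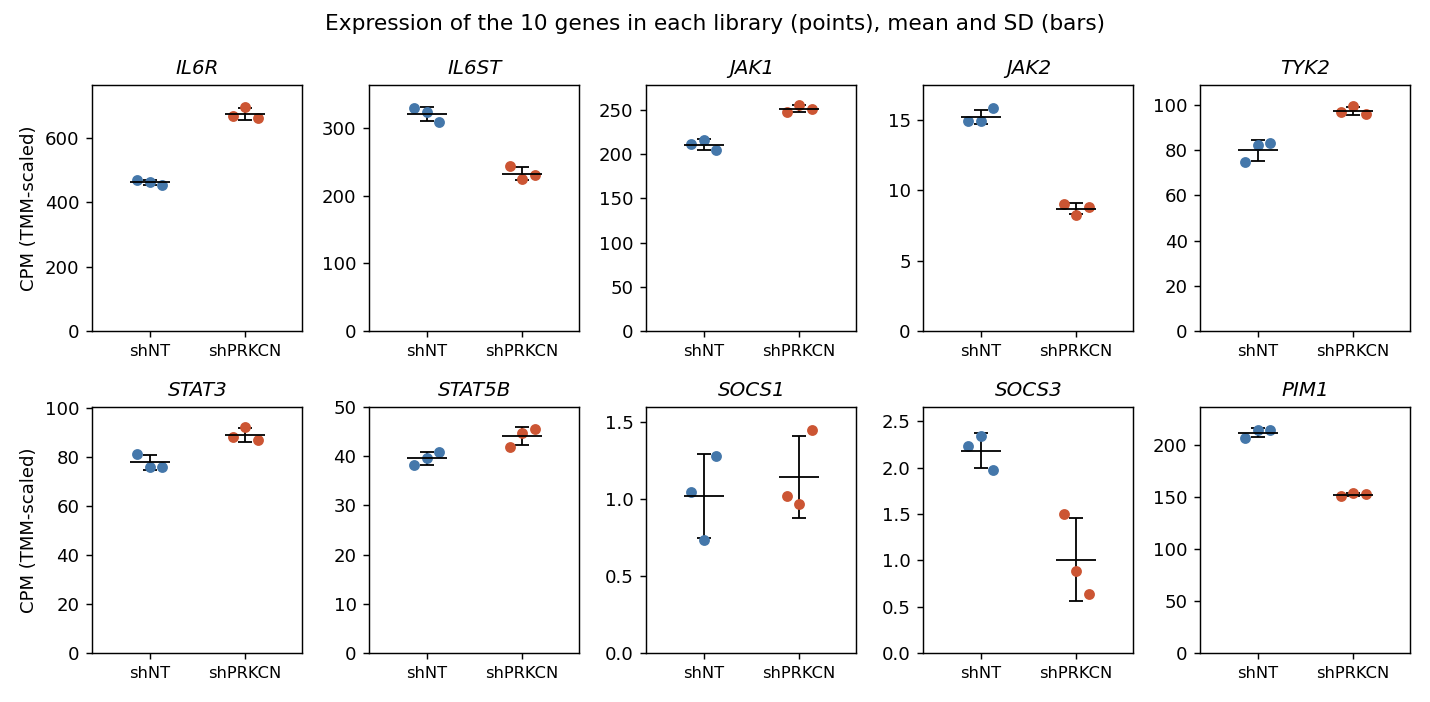
CPM (TMM-scaled, linear axes from 0) of the 10 genes in each shNT and shPRKCN library, with points for libraries and bars for the mean ± SD of 3 libraries. The points of the 2 groups are apart in every panel except SOCS1.

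The receptor chains changed in opposite directions. IL6R, the chain that binds IL-6, lies on chromosome 1 from 154405343 to 154469450 (plus strand) and had 469, 464 and 453 CPM in the shNT libraries and 667, 695 and 662 CPM in the shPRKCN libraries. Every shPRKCN library was higher, and the libraries of each group lay close together. The mean rose from 462 ± 8.46 to 675 ± 18.0 CPM (SD, n = 3 each), a log2 fold change of 0.55 (SE 0.033, adjusted p = 2e-23 from edgeR). This is 1.46-fold, just inside the fold limit, and the 95% interval of 0.48 to 0.61 spans that limit.

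IL6ST encodes gp130, which carries the signal of IL-6 and of its relatives such as IL-11, LIF and oncostatin M. It lies on chromosome 5 from 55935095 to 55994963 (minus strand) and had 329, 324 and 309 CPM in the shNT libraries against 243, 224 and 230 CPM in the shPRKCN libraries. All shPRKCN libraries were lower. The fall from 321 ± 10.6 to 233 ± 9.68 CPM (SD, n = 3 each) left 72.6% of the control level, with a log2 fold change of −0.46 (SE 0.036, adjusted p = 2e-18 from edgeR), under the fold limit. In bulk RNA, fewer cells with a transcript and less of it per cell cannot be told apart.

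Per length, IL6R exceeded IL6ST in both groups. IL6R stood at 68.9 ± 1.26 FPKM and IL6ST at 35.1 ± 1.16 FPKM in shNT cells (SD, n = 3), and at 102 ± 1.63 and 25.8 ± 1.27 FPKM in shPRKCN cells. The ratio of IL6R to IL6ST FPKM within a library was 1.95, 1.95 and 2.00 in shNT and 3.74, 4.23 and 3.92 in shPRKCN libraries. In every shPRKCN library it was higher, on average by 1.01 on the log2 scale, with an exact permutation p of 0.1, the smallest possible. IL6R was higher and IL6ST lower in every shPRKCN library, so the ratio had to separate. Its p therefore adds nothing to the values of the genes. The ratios of partner genes were formed after the values of the genes had been seen and rest on the same counts.

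**Figure D2:**
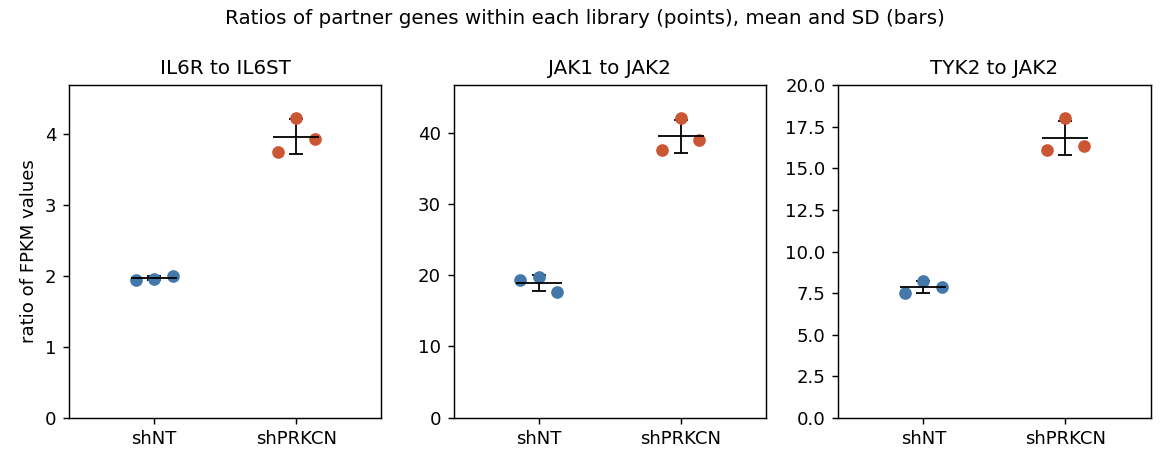
Ratios of deposited FPKM values within each library for IL6R to IL6ST, JAK1 to JAK2 and TYK2 to JAK2 (linear axes from 0), with points for libraries and bars for mean ± SD of 3 libraries. Each ratio was higher in all 3 shPRKCN libraries, with means of 18.9 against 39.5 for JAK1 to JAK2. This separation follows from the genes themselves, which moved in opposite directions in every shPRKCN library.

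The kinases of the receptor also moved apart. JAK2, which serves gp130 as well as the erythropoietin and growth hormone receptors, lies on chromosome 9 from 4984390 to 5129948 (plus strand) and had 527, 549 and 592 counts in shNT and 336, 308 and 335 counts in shPRKCN libraries. The 2 groups did not overlap in counts or in CPM. JAK2 decreased to 57.2% of its control level, with a log2 fold change of −0.81 (SE 0.094, adjusted p = 2.3e-11 from edgeR). It was also the single gene of the 10 that passed when the fold limit was made part of the test (glmTreat, adjusted p = 0.0277). On the log2(FPKM + 1) scale, which compresses low genes, its difference was −0.47, inside the fold limit.

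JAK1, the kinase on which gp130 signalling mainly depends, lies on chromosome 1 from 64833229 to 65067746 (minus strand). It had 211, 216 and 204 CPM in shNT against 247, 255 and 251 CPM in shPRKCN libraries. The shPRKCN libraries were all higher, and the log2 fold change was 0.25 (SE 0.035, adjusted p = 4.9e-09 from edgeR). TYK2, which also serves the type I interferon and IL-12 receptors, lies on chromosome 19 from 10350533 to 10380572 (minus strand) and had 74.6, 82.2 and 83.0 CPM in shNT against 96.8, 99.5 and 96.2 CPM in shPRKCN libraries. Its groups did not overlap either, and its log2 fold change was 0.29 (SE 0.044, adjusted p = 5.9e-08 from edgeR). Thus JAK1 and TYK2 rose by less than the fold limit while JAK2 fell past it. The FPKM ratio of JAK1 to JAK2 was 18.9 ± 1.14 in shNT and 39.5 ± 2.30 in shPRKCN cells, and that of TYK2 to JAK2 was 7.88 ± 0.376 and 16.8 ± 1.03 (SD, n = 3 each). RAVER2, which overlaps JAK1 on the opposite strand, had 1113 to 1519 counts per library, against at least 7450 for JAK1.

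**Figure D3:**
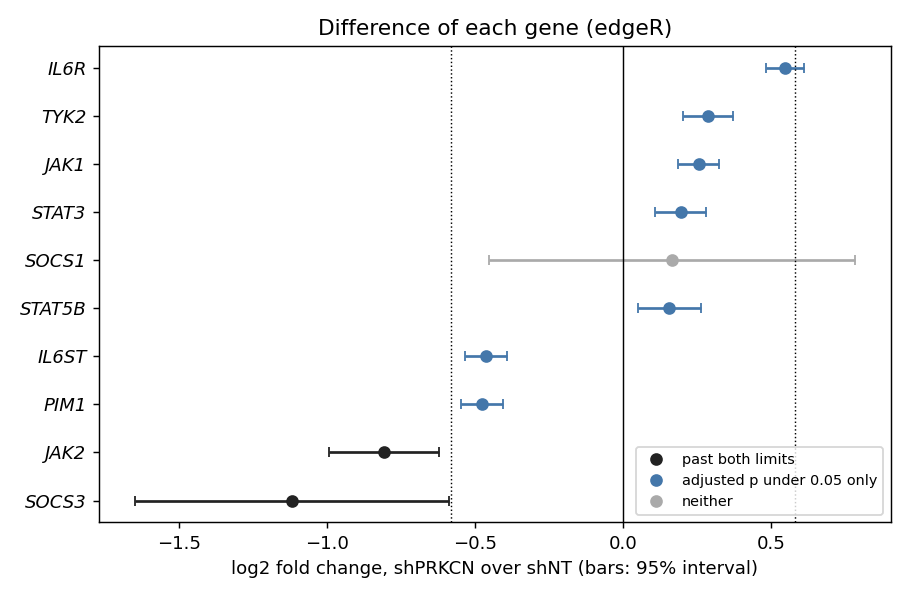
Log2 fold change of shPRKCN over shNT for each of the 10 genes from edgeR, with bars for the 95% interval and dotted lines at the fold limits of −0.58 and 0.58. SOCS3 (−1.12) and JAK2 (−0.81) lie beyond the lower limit, IL6R (0.55) lies just inside the upper one, and the interval of SOCS1 spans 0.

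STAT3 and STAT5B differed little. STAT3, the main effector of gp130, lies on chromosome 17 from 42313324 to 42388442 (minus strand) and had 81.2, 76.1 and 76.0 CPM in shNT and 87.9, 92.2 and 86.8 CPM in shPRKCN libraries. All shPRKCN libraries were higher by a small margin, and the log2 fold change was 0.19 (SE 0.044, adjusted p = 0.00012 from edgeR), or 1.14-fold. STAT5B lies on the same chromosome from 42199177 to 42288370 (minus strand). It had 38.2, 39.5 and 40.9 CPM in shNT against 42.0, 44.7 and 45.6 CPM in shPRKCN libraries. The groups were apart by little, and the log2 fold change was 0.16 (SE 0.053, adjusted p = 0.011 from edgeR). This p rose to 0.0658 without shNT 1 and to 0.0532 without shPRKCN 3. STAT5A, which overlaps STAT5B on the opposite strand, had 118, 135 and 119 counts in shNT and 204, 159 and 187 in shPRKCN libraries. The log2 fold change of STAT5A was larger, 0.52 (SE 0.157, adjusted p = 0.0035 from edgeR), and inside the fold limit. Of the 50-base stretches of the STAT5B transcript, 10% also occur in STAT5A, so their counts are not fully separate. The FPKM ratio of STAT3 to STAT5B was 2.48 ± 0.175 in shNT and 2.55 ± 0.127 in shPRKCN cells (SD, n = 3), with an exact permutation p of 0.8.

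Of the targets and feedback inhibitors, SOCS3 and PIM1 decreased and SOCS1 gave no detectable difference. SOCS3, whose product binds gp130 and blocks the JAKs, lies on chromosome 17 from 78356778 to 78360925 (minus strand) and had 79, 86 and 74 counts in shNT against 56, 33 and 24 counts in shPRKCN libraries. The groups did not overlap, but the shPRKCN libraries spread widely, the first lying highest and the third lowest. SOCS3 fell from 2.18 ± 0.187 to 1.01 ± 0.446 CPM (SD, n = 3 each), a log2 fold change of −1.12 (SE 0.271, adjusted p = 0.00033 from edgeR). With single libraries left out it ran from −1.52 to −0.86, and on the log2(FPKM + 1) scale it was −0.39, inside the fold limit. SOCS1, whose product inhibits JAKs directly, lies on chromosome 16 from 11254417 to 11256204 (minus strand) and had 37, 27 and 48 counts in shNT and 38, 36 and 55 in shPRKCN libraries. These ranges overlap, and the log2 fold change of 0.16 had a 95% interval of −0.45 to 0.78 (adjusted p = 0.69 from edgeR), so that changes in either direction are compatible with these counts. LOC105371082, a long noncoding RNA that overlaps SOCS1 on the opposite strand, had 5 to 33 counts.

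PIM1 encodes a serine/threonine kinase that promotes survival and is induced by STAT3 and STAT5. It lies on chromosome 6 from 37170152 to 37175428 (plus strand) and had 207, 214 and 214 CPM in shNT against 151, 154 and 153 CPM in shPRKCN libraries. Every shPRKCN library was lower, with a spread of 1.55 CPM (SD, n = 3). PIM1 decreased to 71.9% of its control level, a log2 fold change of −0.48 (SE 0.036, adjusted p = 1.5e-18 from edgeR), inside the fold limit. Its relative PIM2, named after its values were seen, had 1344 ± 26.2 CPM in shNT and 1587 ± 42.2 CPM in shPRKCN cells (SD, n = 3), a log2 fold change of 0.24 (SE 0.032, adjusted p = 1.5e-09 from edgeR).

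By level per length, the order in shNT cells was PIM1 (77.8 FPKM), IL6R (68.9), JAK1 (37.6), IL6ST (35.1), TYK2 (15.7), STAT3 (15.2), STAT5B (6.11), JAK2 (1.99), SOCS1 (0.819) and SOCS3 (0.767). TYK2 and STAT3 overlapped between libraries there, as did SOCS1 and SOCS3, and the other neighbours did not. In shPRKCN cells IL6R (102 FPKM) stood above PIM1 (56.7 FPKM), the other 8 genes kept their places, and JAK2 (1.16 FPKM) and SOCS1 (0.931 FPKM) were the single pair of neighbours to overlap. JAK2 transcripts were thus far scarcer than those of JAK1 and TYK2 in both groups.

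The tested genes outside the lists whose log2 CPM over the 6 libraries was most like that of SOCS3 were SPTBN4, PDXP and SSX2IP (Pearson r = 0.99 each, out of 11559 genes). Their log2 fold changes were −0.41, −0.36 and −0.65. The likeness is a description over 2 groups of libraries that share a treatment. No gene of the 10 was called higher, so none was set beside a rise.

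Among 109 further genes of the pathway, 86 were tested, of which 6 were called higher and 13 lower (22.1% against 16.7% of all genes). Without the fold limit, 26 were significantly higher and 27 lower (61.6% against 54.2%), and their median log2 fold change was 0.01.

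The ligands were hardly expressed. IL6 itself had 1 to 11 counts per library, and IL11, LIF, OSM, CNTF and EBI3 had at most 7. CTF1 and IL27 are not listed in the deposited table. CLCF1, a ligand of the CNTF receptor and the single ligand tested, had 61, 61 and 73 counts in shNT and 76, 102 and 103 in shPRKCN libraries, with a log2 fold change of 0.49 that missed the threshold (SE 0.220, adjusted p = 0.055 from edgeR). An overlapping noncoding RNA, LOC100130987, had 31 to 56 counts.

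Of 7 other receptors of the IL-6 family and proteases that shed IL6R, 5 were tested. Of these, 1 was called, lower, where 10.6% of all genes were called lower. Without the fold limit, 0 were higher and 2 lower, where 54.2% of all genes passed in either direction. LIFR, which pairs with gp130 for LIF and oncostatin M, had 61, 40 and 59 counts in shNT against 17, 10 and 12 in shPRKCN libraries, without overlap. Its log2 fold change was −2.07 (SE 0.375, adjusted p = 2.8e-06 from edgeR), and −0.13 on the log2(FPKM + 1) scale because the level was below 1 FPKM. ADAM17, a protease that releases soluble IL6R and named after its values were seen, had 32.8 ± 1.22 CPM in shNT and 22.1 ± 0.929 CPM in shPRKCN cells (SD, n = 3). Its log2 fold change of −0.57 lay just inside the fold limit (SE 0.063, adjusted p = 3e-12 from edgeR), whereas the related protease ADAM10 had −0.01 (adjusted p = 0.84).

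In the list of other receptors that use JAKs, 16 of 25 genes were tested, 6 passed an adjusted p of 0.05 upward and 3 downward (54.2% of all genes passed), and 1 was called in each direction (16.7% of all genes were called), so these counts are near those of the transcriptome. IL21R, the receptor of another plasma cell cytokine, rose from 13.4 ± 1.12 to 22.5 ± 1.59 CPM (SD, n = 3), a log2 fold change of 0.75. EPOR, the erythropoietin receptor, fell by 0.60 on the log2 scale, barely past the limit, and it was inside the limit under 7 of 16 alternatives. These include leaving out shNT 1 (−0.55), shNT 2 (−0.54) or shPRKCN 2 (−0.52). The remaining JAK and STAT genes had 3 higher and 0 lower of 6 tested at an adjusted p under 0.05 without the fold limit. Over all genes tested, 54.2% passed, 26.5% upward and 27.8% downward, so the count of genes that passed is near that of the transcriptome. In this list 1 gene was called higher, where 6.15% of all genes were. It was JAK3, the kinase of the common gamma chain, with a log2 fold change of 0.68 (SE 0.055). JAK3 had 1102, 1094 and 1136 counts in shNT against 1780, 1921 and 1787 in shPRKCN libraries.

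Of 17 other inhibitors tested, 2 passed the adjusted p alone upward and 6 downward (26.5% and 27.8% of all genes). In each direction 1 was called, where 6.15% of all genes were called higher and 10.6% lower. SOCS2, a feedback inhibitor of growth hormone and STAT5 signalling, rose from 8.25 ± 0.646 to 12.8 ± 0.698 CPM (SD, n = 3), a log2 fold change of 0.63 that was 0.57 without shNT 1. CBL, a ubiquitin ligase that targets activated receptors and kinases, fell from 129 ± 7.06 to 82.5 ± 5.04 CPM (SD, n = 3), by 0.65 on the log2 scale. In the RAS and PI3K arm of gp130, 7 genes were higher and 6 lower of 18 tested without the fold limit, where 54.2% of all genes passed, and 2 were called, both lower, where 10.6% of all genes were called lower. GAB2, a docking protein that links receptors to SHP2 and PI3K, had 1179, 1187 and 1186 counts in shNT against 430, 468 and 445 in shPRKCN libraries, a log2 fold change of −1.44 (SE 0.071, adjusted p = 4.3e-28 from edgeR). USP35, which overlaps GAB2 on the opposite strand, had 339 to 501 counts. NRAS, a RAS GTPase that is often mutated in myeloma, fell by 0.64 on the log2 scale.

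A list of 26 genes known to respond to STAT3, each also under other regulators, had 23 tested. Of these, 8 passed an adjusted p of 0.05 upward and 10 downward, where 26.5% and 27.8% of all genes did. Calls numbered 3 upward and 8 downward, against 6.15% and 10.6% of all genes. The median log2 fold change was 0.02. FOS, an AP-1 subunit, changed most, from 137 ± 2.33 to 21.6 ± 0.955 CPM (SD, n = 3), a log2 fold change of −2.67. BCL2, which blocks apoptosis, fell by 1.31 on the log2 scale, and the cell cycle genes CCND1 and BIRC5 fell by 1.10 and 0.89. CCND1 was scarce, with 117 to 131 counts in shNT and 50 to 75 counts in shPRKCN libraries. NFKBIZ, an atypical IκB protein, fell by 0.76, while IL10, an anti-inflammatory cytokine, rose by 0.79, with 94 to 127 counts in shNT and 160 to 206 counts in shPRKCN libraries. These 6 genes had an adjusted p of at most 3.8e-05 (edgeR). NXPE3, which overlaps NFKBIZ, had 13771 to 17454 counts. Named after their values were seen, the survival gene MCL1 had a log2 fold change of 0.02 (adjusted p = 0.69 from edgeR), while its relative BCL2L1 and the gene MYC were higher by 0.15 and 0.12 (adjusted p = 0.00014 and 0.0014), inside the fold limit. The more abundant cyclin gene CCND2, also named afterwards, was called lower. Its mean went from 723.6 ± 12.3 to 462.5 ± 7.606 CPM (SD, n = 3), a log2 fold change of −0.65 (adjusted p = 2.2e-27 from edgeR). Also named afterwards, FURIN and ICAM1 were called higher, by 0.70 and 0.68 on the log2 scale. VEGFA and CEBPB, likewise named afterwards, were called lower, by 0.67 and 0.58. CEBPB was barely past the limit and inside it under 11 of 16 alternatives, with −0.46 on the log2(FPKM + 1) scale. On the log2(FPKM + 1) scale the differences of CCND1 (−0.39), NFKBIZ (−0.46), IL10 (0.56), CBL (−0.57), SOCS2 (0.41) and EPOR (−0.38) were inside the fold limit. Genes of this list went both ways, as did the 10 genes of the axis.

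**Figure D4:**
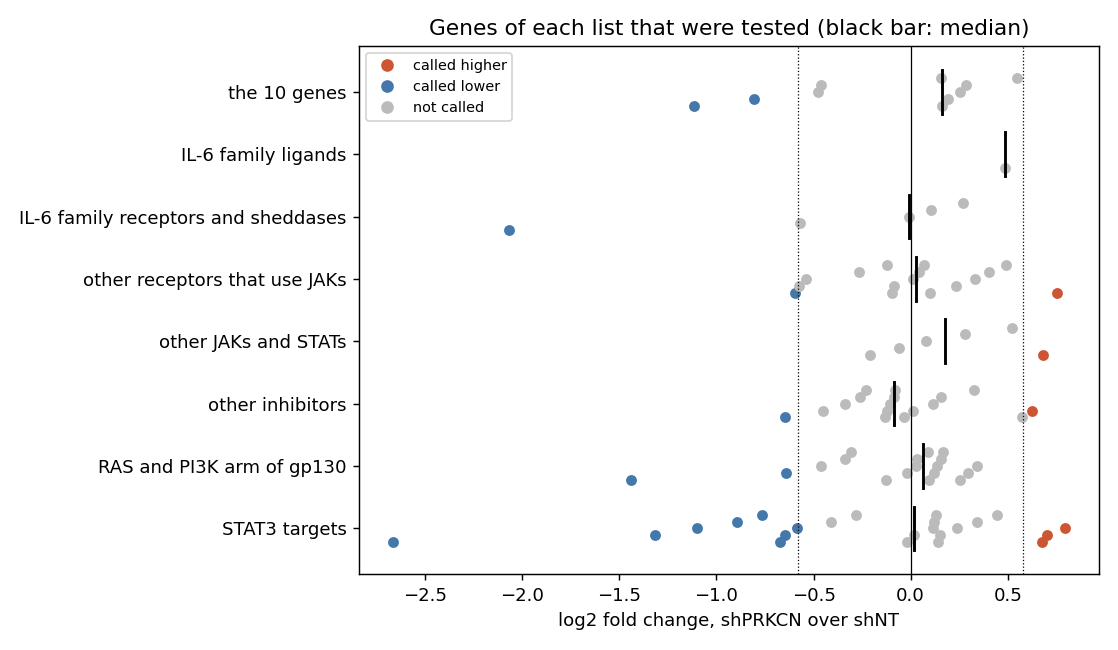
Log2 fold change of shPRKCN over shNT (edgeR) for the tested genes of the axis and of 7 lists of related genes, 1 point a gene, with black bars for list medians and dotted lines at −0.58 and 0.58. Called genes lie on both sides, and the lowest point is FOS at −2.67.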

How the data were processed

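The authors deposited raw counts per gene, with no normalization, for 6 libraries of MM.1S cells, and FPKM values, which the authors made from the same counts. All 21850 genes have 1 length behind their deposited FPKM values (within 0.01%). Submitters' processing notes name FastQC, HISAT2, StringTie and GRCh38.p14. The counting program and its strand setting are not given in the sources used here, so reads of overlapping genes cannot be told apart.

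Groups came from the treatment labels. Counts were TMM-normalized and tested with edgeR 4.0.16 in R 4.3.3 (filterByExpr, quasi-likelihood, shPRKCN against shNT), with Benjamini-Hochberg adjustment over 13971 genes. The SE is the absolute log2 fold change over the square root of F, and 95% intervals are ± 1.96 SE. Replicates differed beyond sampling noise (chi-square per degree of freedom of at least 3.49), so none is a copy of another. This does not show that they were separate cultures. The fit was also run on simulated data with planted changes. That simulation used a fixed dispersion, so it says nothing of genes as variable as SOCS3.

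Alternatives were DESeq2 1.42.0, RLE, upper-quartile or library-size scaling, no filter, at least 10 counts in every library, a replicate block, each library left out, limma 3.58.1 on log2(FPKM + 1), with and without a filter at 1 FPKM in 3 libraries, and on log2(FPKM + 0.1), and glmTreat. The 10 genes and the lists were chosen with earlier results of these data known. All 10 genes are named, with every called gene of another pathway list (at most the 6 largest changes, or the most abundant gene where none was called) and the 3 genes, averaging 50 counts or more, most correlated with the called member of largest rise or fall. Promoters and positions are from RefSeq (GRCh38.p14), shared stretches from GENCODE transcripts, both read with Python 3.11.15.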

Additional observations from a re-analysis of the deposited data

How the results depend on the processing

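On the log2(FPKM + 1) scale, with and without its filter, 0 of the 10 genes were called lower in place of 2, and 7 further pathway genes in place of 13. With glmTreat these counts were 1 (JAK2) and 7, and 2 pathway genes were called higher in place of 6. Over all genes, 315 were called higher and 648 lower on the log2(FPKM + 1) scale (310 and 635 with the filter) and 339 and 821 with glmTreat, against 859 and 1475. SOCS1 turned from 0.16 to −0.021 without shNT 2 and to −0.034 without shPRKCN 3, within −0.034 to 0.36 with single libraries left out. STAT5B missed 0.05 without shNT 1 or shPRKCN 3. The directions of the other 9 genes held under all alternatives that gave a value. With the replicate number as a block, JAK2 and SOCS3 were again called, and 854 genes were higher and 1463 lower over the transcriptome. Deviations of same-numbered libraries correlated by −0.06 to −0.02, so no pairing by number was seen. With 3 libraries a group this check cannot exclude pairing. Whether same-numbered libraries shared a batch was not tested. Of 3 numbers, 0 correlated best with their own. The causes were not tested. SOCS1 and SOCS3 had at most 86 counts in a library, the fewest of the 10 genes, and SOCS3 varied by a CV of 44.3% among shPRKCN libraries.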
